A study of Rattus norvegicus with 9 samples.

Results

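Early B cell development genes were followed through the RNA of rat bone. The genes were chosen by name and comprised 9 symbols, namely Rag1, Rag2, Dntt, Vpreb1, Igll1, Ebf1, Pax5, Cd79a and Cd79b. Of these, 8 had a row among the 23026 genes in the deposited tables, and all 8 passed the filter on low counts that left 16874 genes to test. No row carried the symbol Vpreb1. In RefSeq that symbol is a synonym of Vpreb1a, which has a second copy, Vpreb1b. Both rows are described beside the 8 genes without being counted among them.

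The bone came from female Sprague–Dawley rats that were 8 weeks old on arrival, in 3 groups of 3 libraries. Sham rats kept their ovaries and lost only nearby fat, OVX rats lost both ovaries, and OVX-AS-IV-High rats were ovariectomized and then received astragaloside IV (AS-IV), a saponin of Astragalus root, by gavage at 80 mg/kg. Daily gavage began 6 weeks after surgery and lasted 8 weeks, and the Sham and OVX rats received carboxymethyl cellulose (CMC-Na) vehicle alone. By the study's methods, AS-IV was itself prepared in CMC-Na. The labels give the vehicle of the Sham libraries as 1%, 2% and 3% CMC-Na and that of the OVX libraries as 1%, whereas the study's methods name a single strength. The drug was given only to ovariectomized rats, and no low or middle dose was sequenced here. The tissue label is bone, without naming the skeletal site or saying whether marrow was removed. The study's methods report freezing a femur of each rat for molecular work, but their sequencing section names no bone. The level of a gene in such bulk RNA cannot tell fewer cells of a type from less RNA per cell.

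B cells are made in the bone marrow throughout adult life. A lymphoid progenitor switches on the transcription factors Ebf1 and Pax5 on its way to the B lineage. The recombinase encoded by Rag1 and Rag2 cuts the immunoglobulin heavy chain gene, and Dntt adds untemplated bases where the ends are joined. The new heavy chain is tested on the cell surface with a surrogate light chain, built from Vpreb1 and Igll1, and with the signalling pair Cd79a and Cd79b. Rag1, Rag2, Dntt, Vpreb1 and Igll1 are used at the pro-B and pre-B stages and then shut down, whereas Ebf1, Pax5, Cd79a and Cd79b stay on in later B cells.

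The sequences just upstream of several of these genes hold either or both of 2 short motifs that the transcription factors of this stage are known to bind. Of these sequences, 5 are printed here. The windows are the 250 bases before the annotated start in RefSeq, on build GRCr8, written 5′ to 3′ on the strand of the gene, with motif matches in capitals. The counts were made on build mRatBN7.2, so these positions locate the sequences and not the reads. Cd79a and Igll1 are shown because EBF-type motifs lie in them, the Vpreb1a and Vpreb1b pair because the reads of these copies may be hard to separate, and Rag1 because it carries an E box without an EBF-type match.
Cd79a, chr1:89621210-89621459, + strand: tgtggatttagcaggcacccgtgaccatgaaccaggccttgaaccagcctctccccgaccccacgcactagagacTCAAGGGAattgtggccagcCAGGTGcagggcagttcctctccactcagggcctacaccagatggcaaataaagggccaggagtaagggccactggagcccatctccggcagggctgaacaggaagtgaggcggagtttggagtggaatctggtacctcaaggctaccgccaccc
Igll1, chr11:97642937-97643186, + strand: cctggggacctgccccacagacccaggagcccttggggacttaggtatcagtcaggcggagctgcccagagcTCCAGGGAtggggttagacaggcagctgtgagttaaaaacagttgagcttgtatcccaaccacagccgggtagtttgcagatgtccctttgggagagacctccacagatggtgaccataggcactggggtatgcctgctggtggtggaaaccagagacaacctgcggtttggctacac
Vpreb1a, chr11:97630924-97631173, + strand: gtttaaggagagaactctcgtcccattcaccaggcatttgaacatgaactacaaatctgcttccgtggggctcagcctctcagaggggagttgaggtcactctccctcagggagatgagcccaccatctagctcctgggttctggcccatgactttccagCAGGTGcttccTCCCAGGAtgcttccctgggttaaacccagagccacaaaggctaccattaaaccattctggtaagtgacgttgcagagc
Vpreb1b, chr11:96514405-96514654, - strand: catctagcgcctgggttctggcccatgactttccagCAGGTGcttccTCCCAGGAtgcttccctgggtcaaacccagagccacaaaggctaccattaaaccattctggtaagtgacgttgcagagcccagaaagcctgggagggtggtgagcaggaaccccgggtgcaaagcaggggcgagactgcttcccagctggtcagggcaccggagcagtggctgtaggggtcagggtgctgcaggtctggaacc
Rag1, chr3:108383185-108383434, - strand: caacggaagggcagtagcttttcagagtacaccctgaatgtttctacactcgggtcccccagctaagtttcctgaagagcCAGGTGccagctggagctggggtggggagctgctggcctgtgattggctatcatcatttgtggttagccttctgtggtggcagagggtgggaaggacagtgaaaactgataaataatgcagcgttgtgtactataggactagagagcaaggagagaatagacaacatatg

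The letters TCNNGGGA, a loose form of the EBF motif, were searched on both strands and were present in 15% of the 33469 rat promoter windows of this length. They matched upstream of Cd79a at 175 to 168 bases before the start, and upstream of Igll1 at 178 to 171 bases. Dntt, Vpreb1a and Vpreb1b held a match too, the last pair on the opposite strand. The E box CAGGTG, the kind bound by E2A (the product of Tcf3), occurred in 15.9% of windows and was found upstream of Cd79a, Rag1, Vpreb1a and Vpreb1b. Windows were on hand for 6 of the 9 listed symbols under their own names, and those of Rag2 and Ebf1 held no match to either motif. With the first bases after the start included, giving 300 bases for each gene, Vpreb1a and Vpreb1b aligned over 176 bases, of which 171 were identical (97.2%). The aligned stretch, which in Vpreb1a runs past the start and so past the window printed here, began 250 bases before the annotated start of Vpreb1b but 126 bases before that of Vpreb1a. In the RefSeq gene order, Rag1 and Rag2 are neighbours, as are Vpreb1a and Igll1, with 0 protein-coding genes between the members of each pair, while 36 lie between Vpreb1a and Vpreb1b.

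All 8 genes were expressed in every library. Ordered by median FPKM (fragments scaled to gene length and library size) over the 9 libraries, a scale that allows genes of different length to be compared, Cd79a stood highest at 292 and Cd79b followed at 124. Igll1 had a median of 42.1, Dntt 22.9, Rag1 17.8, Ebf1 16.8, Pax5 11.3 and Rag2 8.45. The ranges of Dntt, Rag1, Ebf1 and Pax5 over the libraries overlapped. Spread separated the genes in another way. The highest library held 4.29 times the lowest for Rag1, 4.61 times for Rag2, 3.80 times for Dntt and 4.49 times for Igll1, but only 1.53 times for Ebf1, 1.59 times for Pax5, 1.93 times for Cd79a and 1.85 times for Cd79b. The genes of the pro-B and pre-B stages thus ranged more widely across libraries than those that stay on in later B cells.

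Library totals ran from 34874880 to 37298250 counts, so every library was read to a similar depth. Skeletal muscle genes were abundant in Sham 1 and Sham 2, at summed levels of 7760 and 5039 normalized CPM (counts scaled to library size), and in OVX-AS-IV-High 1 at 3850, against 482 to 2710 in the other 6 libraries. Those 3 libraries also held the lowest summed levels of the 8 early B cell genes. T cell RNA was low, and the thymocyte marker Ptcra, which would mark T cell progenitors that also use Rag1, Rag2 and Dntt, had at most 28 counts in a library.

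**Figure D1:**
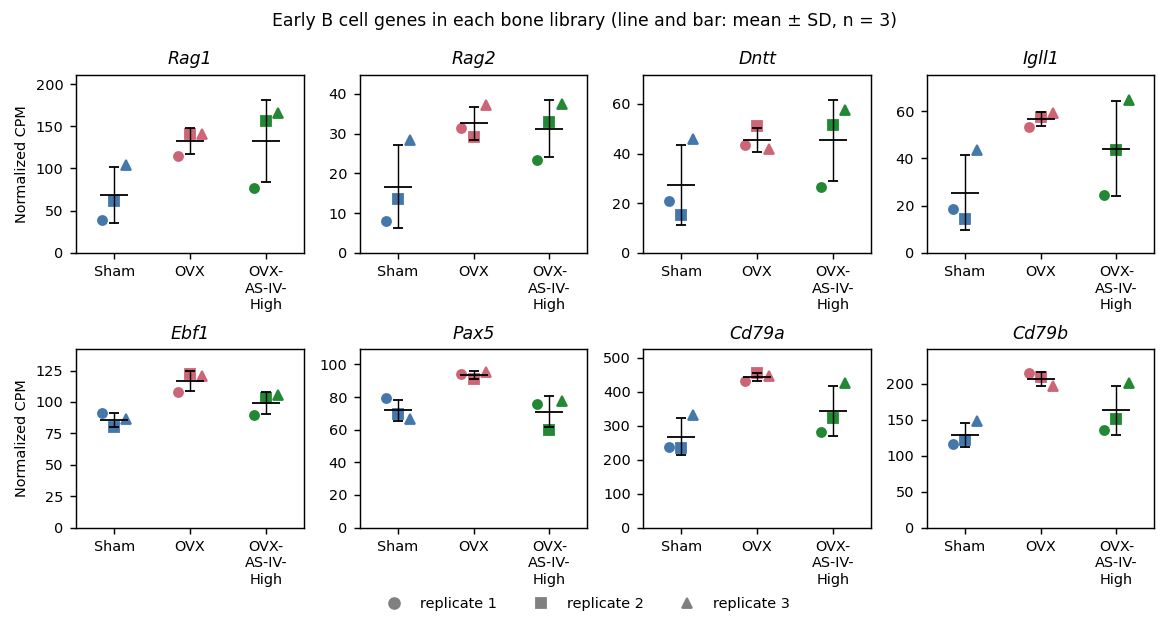
Normalized CPM of the 8 early B cell genes (vertical axes, each from 0) by group of bone libraries. Each point is 1 library, the marker shape gives its replicate number, and the line and bar give the mean ± SD of 3 libraries. Sham 3 lies near or above the lowest OVX library for Rag2 and Dntt, while for Cd79a and Cd79b all OVX points lie clear of all Sham points.

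Ovariectomy was examined first, by comparing OVX with Sham. All 8 early B cell genes had higher mean levels in OVX bone, from 1.30-fold for Pax5 to 2.23-fold for Igll1. Among the 8, Rag1, Rag2 and Igll1 showed the larger differences and a larger spread, and the transcription factors and signalling chains the smaller and more even ones. Dntt had a similarly large spread, but its log2 fold change of 0.73 was level with that of Cd79a. In edgeR's quasi-likelihood test, 7 of the 8 had an unadjusted p under 0.05, Dntt being the exception, where 8.16% of all genes tested were higher at that p. The same 7 had no overlap between groups, the lowest OVX library lying above the highest Sham library, against 12.7% of all genes. With the further requirement of a log2 fold change above 1, a threshold used in the study's own results, only Igll1 passed, against 1.08% of all genes. With the log2 threshold of 0.58 that the study's methods name, 5 of 8 passed, namely Rag1, Rag2, Igll1, Cd79a and Cd79b, against 2.86% of all genes. No gene of the 16874 reached a Benjamini-Hochberg adjusted p under 0.05 in edgeR, where 2775 had an unadjusted p under 0.05, and DESeq2 called 834 genes at that adjusted p, 3 of the 8 among them. The median log2 fold change was 0.73 over the 8 genes and -0.01 over all genes.

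Rag1 encodes the catalytic subunit of the recombinase. It measured 38.5, 61.6 and 104 normalized CPM in Sham 1, 2 and 3, and 115, 141 and 141 in the OVX libraries. Every OVX library exceeded every Sham library, though Sham 3 came within reach of OVX 1. The log2 fold change was 0.96 ± 0.36 (SE), with an adjusted p of 0.245. Its partner Rag2 measured 8.11, 13.6 and 28.3 normalized CPM in Sham and 31.5, 29.1 and 37.1 in OVX bone, again without overlap but with Sham 3 just under the lowest OVX library. The difference was 0.97 ± 0.38 on the log2 scale (adjusted p = 0.26 in edgeR). The ratio of Rag1 to Rag2 counts stayed between 3.30 and 4.85 over the 9 libraries. A gene named Iftap overlaps Rag2 in RefSeq, so some Rag2 reads could be shared with it, as the strand setting of the counting is not given in the sources used here.

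Dntt encodes terminal deoxynucleotidyl transferase. It measured 21.0, 15.1 and 45.8 normalized CPM in Sham and 43.5, 51.1 and 41.7 in OVX bone, so Sham 3 stood above OVX 1 and OVX 3. The log2 fold change of 0.73 ± 0.40 did not pass the test (adjusted p = 0.372 in edgeR). Igll1, the constant-like component of the surrogate light chain, measured 18.4, 14.4 and 43.6 in Sham against 53.4, 57.6 and 59.2 in OVX bone. The OVX libraries were close to each other and above all Sham libraries. The difference of 1.15 ± 0.43 on the log2 scale was the largest of the 8 (unadjusted p = 0.0238, adjusted p = 0.238 in edgeR). Without Sham 1 it was 0.96 with an unadjusted p of 0.0809, and without Sham 2 it was 0.88 with an unadjusted p of 0.077 (edgeR). The call on Igll1 thus rested on both libraries, which held the 2 lowest Sham values of the gene. Both were also rich in muscle RNA, and the part of muscle content in this call was not tested. Without Sham 3, which held the highest Sham values of all 4 stage-restricted genes, Rag1, Rag2 and Dntt passed the thresholds as well, with log2 fold changes of 1.40, 1.59 and 1.33.

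Ebf1, which opens the B cell program, measured 91.1, 79.8 and 86.7 normalized CPM in Sham and 108, 122 and 120.4 in OVX bone. The groups were well apart, and the log2 fold change was 0.44 ± 0.10 (adjusted p = 0.14 in edgeR). Pax5, which commits the cell to the B lineage, measured 79.2, 69.5 and 66.7 in Sham and 94.0, 91.2 and 95.5 in OVX bone. Here Sham 3 was the lowest of the Sham libraries, unlike in the recombinase genes. Its log2 fold change was 0.38 ± 0.11 (adjusted p = 0.18 in edgeR). Ebf1 and Pax5 also overlap uncharacterized genes in RefSeq, 2 and 1 respectively, and Dntt overlaps 1 such gene.

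Cd79a and Cd79b encode the signalling chains that carry the signal of the pre-B and B cell receptor into the cell. Cd79a measured 236, 236 and 332 normalized CPM in Sham against 432, 456 and 446 in OVX bone. Cd79b measured 116, 122 and 148 in Sham against 215, 209 and 197 in OVX bone. For both, even the highest Sham library lay far below the lowest OVX library. Cd79a differed by 0.73 ± 0.18 on the log2 scale, with an adjusted p of 0.149, and Cd79b by 0.68 ± 0.15, with an adjusted p of 0.14 (edgeR). Cd79b had the smallest unadjusted p of the 8 genes, 0.00141, and ranked 168th among all genes.

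**Figure D2:**
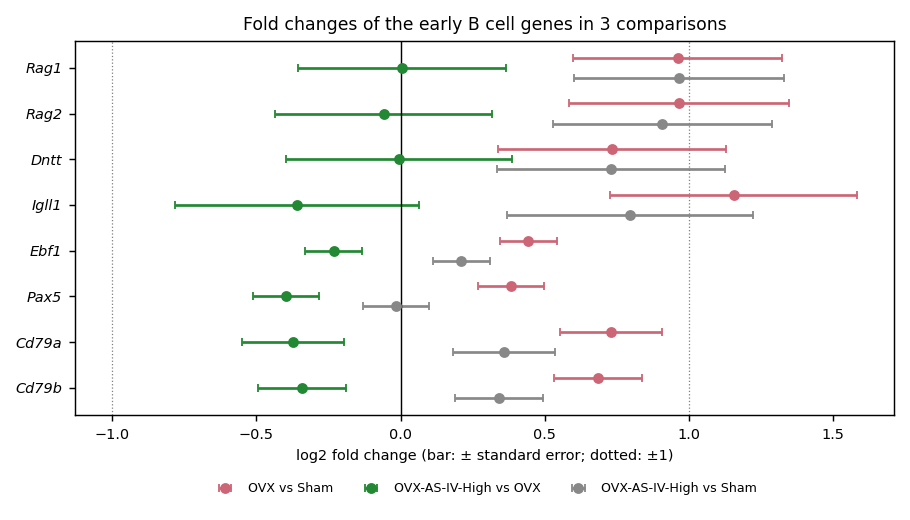
Fitted log2 fold change (horizontal axis) of each of the 8 genes in OVX against Sham, OVX-AS-IV-High against OVX, and OVX-AS-IV-High against Sham, from a fit to all 9 libraries. Points are estimates, bars ± SE and dotted lines a log2 fold change of 1 in either direction. Only Igll1 in OVX against Sham lies past a dotted line, at 1.15.

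The difference was also followed through the libraries that held much muscle RNA. With Sham 1 and Sham 2 left out, which leaves the single Sham 3 library on the assumption that it varies like the other groups, the log2 fold changes were 0.36 for Rag1, 0.21 for Rag2, -0.00448 for Dntt and 0.39 for Igll1. On the same libraries they were 0.44 for Ebf1, 0.50 for Pax5, 0.43 for Cd79a and 0.49 for Cd79b, and 2 of the 8 genes kept an unadjusted p under 0.05, namely Ebf1 and Pax5. With the summed muscle level as a covariate instead, 7 of 8 genes had an unadjusted p under 0.05 and none passed a log2 fold change of 1, with Igll1 at 0.79, Rag1 at 0.63 and Dntt at 0.44. The differences of Rag1, Rag2, Dntt and Igll1 were smaller than with all libraries in both of these fits. Without Sham 1 and Sham 2, those of Cd79a and Cd79b were smaller too, from 0.73 to 0.43 and from 0.68 to 0.49. The difference of Pax5 was larger in both fits, and that of Ebf1 was 0.39 with the covariate.

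Leukocyte RNA as a whole was higher in OVX bone too. The 6 pan-leukocyte genes, which mark white blood cells of any kind, summed to 2532, 2291 and 2209 normalized CPM in Sham and 2813, 2911 and 2981 in OVX bone, without overlap. The summed level of the 8 early B cell genes was 609, 612 and 855 in Sham and 1092, 1157 and 1138 in OVX bone. Divided by the leukocyte sum of the same library, it was 0.240, 0.267 and 0.387 in Sham and 0.388, 0.397 and 0.382 in OVX bone. Sham 3 thus sat among the OVX libraries on this scale, and Sham 1 and Sham 2 below them. When libraries were scaled to the pan-leukocyte genes, which shifted the median log2 fold change of all genes by -0.31, all 8 genes were still higher in OVX, from 0.08 for Pax5 to 0.82 for Igll1, and none had an unadjusted p under 0.05.

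**Figure D3:**
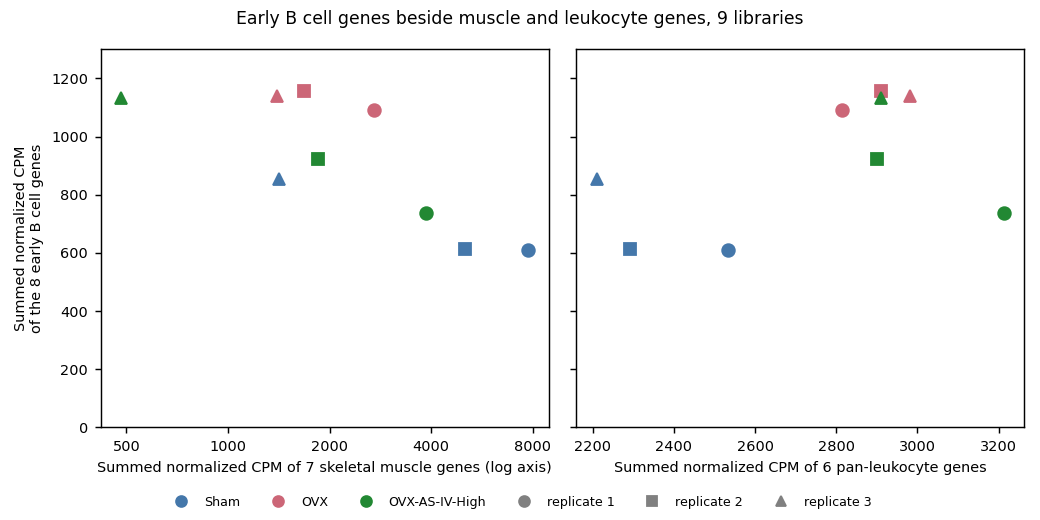
Summed normalized CPM of the 8 early B cell genes (vertical axis) against that of 7 skeletal muscle genes (left, log axis) and of 6 pan-leukocyte genes (right, axis not starting at 0) in the 9 libraries. Color gives the group and shape the replicate number. Sham 1, Sham 2 and OVX-AS-IV-High 1 combine the most muscle signal with the lowest early B cell sums, 609, 612 and 736.

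The effect of AS-IV was examined by comparing OVX-AS-IV-High with OVX, which are both ovariectomized. Pax5, Ebf1 and Cd79b were lower in treated bone at an unadjusted p under 0.05, so 3 of 8 genes stood at that level where 2.03% of all genes did. Rag1, Rag2 and Dntt had nearly equal means in both groups. Ebf1, Pax5 and Cd79a had no overlap between groups, each treated library lying below each OVX library, against 6.36% of all genes. None of the 8 passed a log2 fold change of 1 at that p, against 0.373% of all genes in this direction, and the median was -0.29 over the 8 genes and -0.02 over all. By edgeR, 0 of 16874 genes reached an adjusted p under 0.05, with 1089 at an unadjusted p under 0.05, and DESeq2 called 37 genes, 0 of the 8 among them. The OVX libraries serve in this comparison and in the one with Sham, so the 2 sets of values are not independent.

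Pax5 measured 75.6, 60.1 and 77.5 normalized CPM in the treated libraries, against 91.2 to 95.5 in OVX bone. Its log2 fold change was -0.40 ± 0.11 (unadjusted p = 0.00674, adjusted p = 0.652 in edgeR), and its treated mean of 71.1 ± 9.55 (SD, n = 3) was close to the Sham mean of 71.8 ± 6.60. Ebf1 measured 89.3, 103 and 106 in the treated libraries, all under the lowest OVX value of 108, with a log2 fold change of -0.23 ± 0.10 (adjusted p = 0.765). Cd79a measured 283, 322 and 425, and Cd79b 136, 152 and 201. OVX-AS-IV-High 3 was near the OVX level for both chains, and it overlapped OVX for Cd79b. Their log2 fold changes were -0.37 ± 0.18 for Cd79a and -0.34 ± 0.15 for Cd79b, with adjusted p of 0.797 and 0.772 in edgeR.

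The stage-restricted genes showed another pattern among the treated libraries. Rag1 measured 77.1, 156 and 165 normalized CPM in OVX-AS-IV-High 1, 2 and 3, so that OVX-AS-IV-High 1 lay below all OVX libraries and the other two above them. Rag2 measured 23.4, 33.03 and 37.4, Dntt 26.7, 51.6 and 57.5, and Igll1 24.4, 43.5 and 64.7. In each of the 4 genes OVX-AS-IV-High 1, the treated library with the most muscle RNA, was the lowest and OVX-AS-IV-High 3, with the least, the highest. The log2 fold changes were 0.01 ± 0.36 for Rag1, -0.06 ± 0.38 for Rag2, -0.00499 ± 0.39 for Dntt and -0.36 ± 0.42 for Igll1, and standard errors of this size leave room for differences of either sign. With Sham 1, Sham 2 and OVX-AS-IV-High 1 left out, Rag1 was higher in treated bone by 0.29 (unadjusted p = 0.0413 in edgeR) while Pax5 was lower by a log2 fold change of -0.44 (unadjusted p = 0.00807). The number of the 8 genes at an unadjusted p under 0.05 fell to 1 without any single one of Sham 1, Sham 2, OVX 2, OVX 3, OVX-AS-IV-High 1 or OVX-AS-IV-High 2.

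The ratio of Rag1 to Pax5 within a library, on the FPKM scale, was 0.51, 0.93 and 1.64 for the Sham libraries, 1.28, 1.63 and 1.55 for the OVX libraries, and 1.07, 2.73 and 2.24 in treated bone. OVX-AS-IV-High 2 and 3 held the highest ratios of the 9 libraries and Sham 1 and Sham 2 the lowest. Igll1 relative to Cd79a on the same scale was 0.086, 0.067 and 0.144 with Sham surgery, 0.135, 0.139 and 0.146 after ovariectomy, and 0.095, 0.148 and 0.167 in treated bone. The ratio of the 2 signalling chains was steadier, with Cd79a at 2.07 to 2.44 times Cd79b in every library. Across the 28 pairs of the 8 genes, Pearson's r of log2 CPM over the 9 libraries ran from 0.11, between Rag1 and Pax5, to 0.98, between Cd79a and Cd79b, with a median of 0.83. The 9 points come from 3 groups and differ in muscle content, so these correlations are a description.

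Treated bone was last set against Sham. Rag1 and Rag2 were higher at an unadjusted p under 0.05, so 2 of 8 genes stood at that level where 9.17% of all genes did. Their log2 fold changes were 0.97 ± 0.36 and 0.91 ± 0.38, with adjusted p of 0.224 and 0.265 in edgeR. With both thresholds 0 of 8 passed, against 1.11% of all genes, and at a log2 threshold of 0.58 Rag1 and Rag2 did, against 3.07%. In this comparison none of the 8 was without overlap between groups, against 9.61% of all genes that were higher without overlap. Dntt, Igll1, Ebf1, Cd79a and Cd79b had log2 fold changes of 0.73, 0.79, 0.21, 0.36 and 0.34, and Pax5 of -0.01 ± 0.11. Scaled to pan-leukocyte genes, 4 of 8 genes were higher than in Sham, Ebf1, Cd79a and Cd79b having turned to -0.14, -0.00495 and -0.02, and Pax5 had a log2 fold change of -0.37. No gene reached an adjusted p under 0.05 in edgeR, where 2978 had an unadjusted p under 0.05, and DESeq2 called 1009, with 0 of the 8 among them. The count of 0 past both thresholds became 4 without Sham 3 and 3 without OVX-AS-IV-High 1.

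The surrogate light chain partner of Igll1 was counted in a pair of rows. Vpreb1a gave 348, 173 and 495 counts for the Sham libraries, 963, 595 and 614 for the OVX libraries, and 76, 497 and 1031 for treated bone. For Vpreb1b the counts were 396, 232 and 643 with Sham surgery, 415, 597 and 518 after ovariectomy, and 578, 482 and 342 with AS-IV. Vpreb1a was higher in every OVX library than in any Sham library, Vpreb1b overlapped, and in OVX-AS-IV-High 1 Vpreb1a was at 76 counts where Vpreb1b was at 578. The share of Vpreb1a in the sum was 42.7 to 46.8% in Sham, 49.9 to 69.9% in OVX and 11.6 to 75.1% in treated bone. Reads of such copies may be assigned to either, but only sequence near their starts was compared here and not their transcripts. The split between the rows is therefore uncertain, and the sum is the safer quantity.

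The Sham libraries summed to 744, 405 and 1138 counts, the OVX libraries to 1378, 1192 and 1132, and the treated libraries to 654, 979 and 1373. Sham 3 and OVX 3 thus differed by only 6 counts. The sum had a log2 fold change of 0.63 ± 0.35 in OVX against Sham (unadjusted p = 0.102 in edgeR) and of -0.28 ± 0.35 in treated against OVX bone (unadjusted p = 0.442). Taken alone, Vpreb1a had 1.03 ± 0.71 and Vpreb1b 0.20 ± 0.33 in OVX against Sham, with adjusted p of 0.472 and 0.777.

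**Figure D4:**
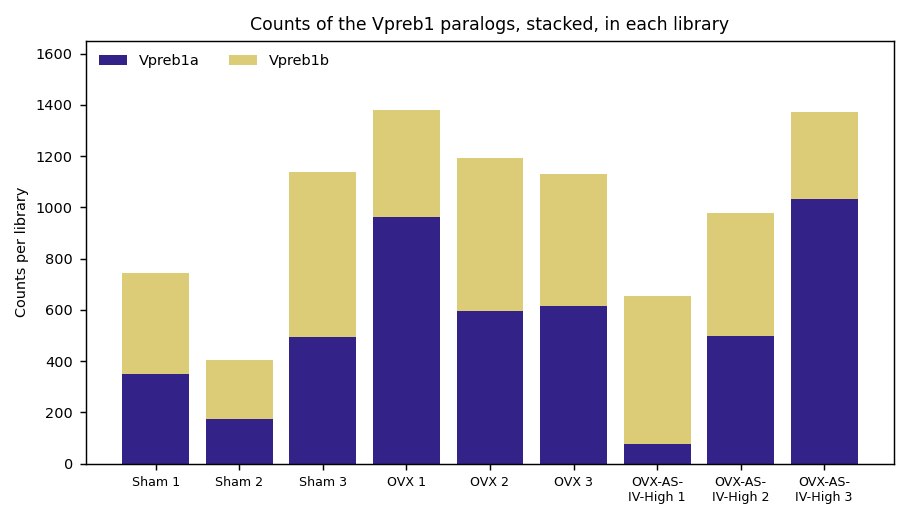
Counts per library (vertical axis, from 0) of Vpreb1a and Vpreb1b, stacked, in the 9 bone libraries. The Vpreb1a part of the bar is 11.6% in OVX-AS-IV-High 1 and 75.1% in OVX-AS-IV-High 3, while no Sham bar has more than 46.8%.

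The wider pathway was read from 32 further genes of early B cell development, all of which were tested. In OVX against Sham, 18 of 32 were higher at an unadjusted p under 0.05 and 0 lower, against 8.16% and 8.28% of all genes. Without overlap 20 were higher, against 12.7% of all genes, and their median log2 fold change was 0.41. None passed a log2 fold change of 1. Among those at an unadjusted p under 0.05 were the transcription factor genes Ikzf1 (Ikaros) at 0.85 ± 0.33, Tcf3, which encodes the E box factor E2A, at 0.40 ± 0.15, and Foxo1, an activator of the recombinase genes, at 0.48 ± 0.13. Blnk, the adaptor below the receptor, was at 0.49 ± 0.15 and Vpreb3, a chaperone of the light chain family, at 0.78 ± 0.25.

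The signals that support the niche did not pass the test. Il7, the cytokine that early B cells need, gave 263, 217 and 196 counts with Sham surgery and 282, 252 and 237 after ovariectomy, and its log2 fold change was 0.12 ± 0.17. Cxcl12, the stromal chemokine that holds progenitors in the marrow, was abundant at 1234 to 1464 normalized CPM in Sham and 1310 to 1518 in OVX bone, with a log2 fold change of 0.12 ± 0.16. The receptor Il7r stood at 0.46 ± 0.32 with overlapping groups, as Sham 3 at 71.3 normalized CPM exceeded OVX 1 and OVX 3. A further 12 genes assist the recombinase or act on the broken DNA ends it leaves, and their median log2 fold change was 0.14. Of these, 5 were higher at an unadjusted p under 0.05 and 0 lower, against 8.16% and 8.28% of all genes.

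**Figure D5:**
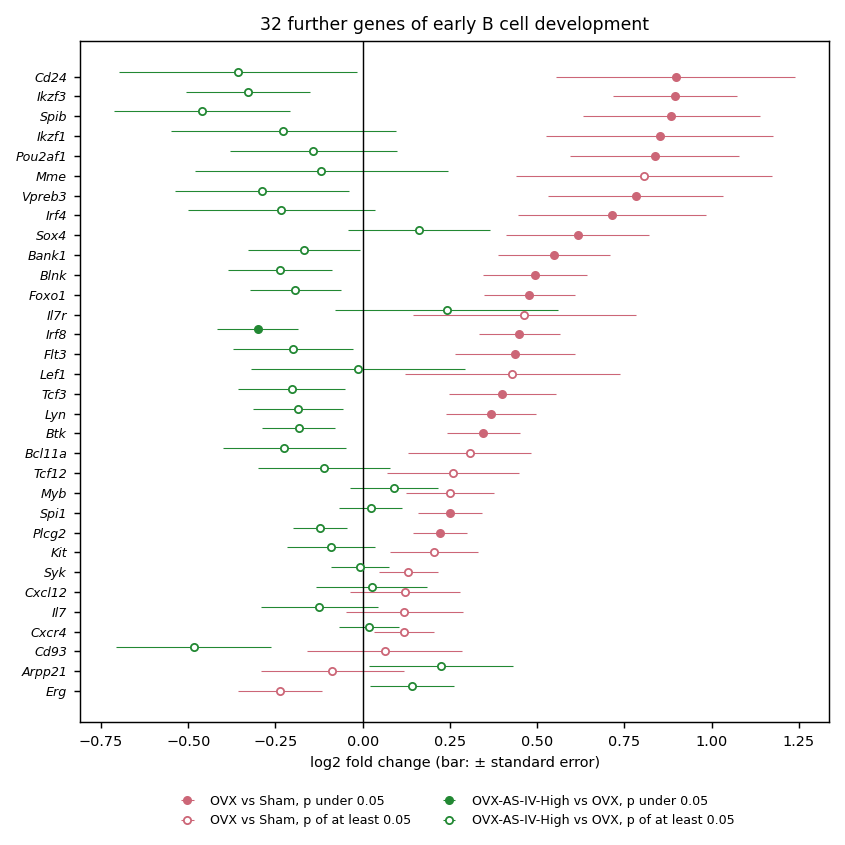
Fitted log2 fold change (horizontal axis, bar ± SE) of 32 further early B cell development genes in OVX against Sham and in OVX-AS-IV-High against OVX. Filled points have an unadjusted p under 0.05 in edgeR, which holds for 18 genes in OVX against Sham and for 1, Irf8, in OVX-AS-IV-High against OVX.

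In treated against OVX bone, 0 of the 32 were higher and 1 was lower at an unadjusted p under 0.05, against 4.42% and 2.03% of all genes, and 4 of 32 were lower without overlap, against 6.36% of all genes. Tcf3 had a log2 fold change of -0.20 ± 0.15, Foxo1 -0.19 ± 0.13, Blnk -0.24 ± 0.15, Vpreb3 -0.29 ± 0.25 and Ikzf1 -0.23 ± 0.32. Il7r stood at 0.24 ± 0.32, Il7 at -0.12 ± 0.17 and Cxcl12 at 0.03 ± 0.16. None of these named genes had an unadjusted p under 0.05. In treated bone against Sham, 6 of the 32 were higher at that p and 0 lower, where 9.17% of all genes were higher and 8.48% lower.

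Genes of mature B cells and plasma cells gave the later stages. Of 12 listed, 10 had a row, Ighm and Ighd having none. In OVX against Sham 4 of 10 were higher at an unadjusted p under 0.05 and 0 lower, against 8.16% and 8.28% of all genes, with a median log2 fold change of 0.36. Ms4a1, which encodes the mature B cell antigen CD20, measured 28.3, 38.3 and 42.2 normalized CPM with Sham surgery, 69.6, 60.2 and 55.3 after ovariectomy and 32.0, 40.5 and 56.0 in treated bone. The OVX libraries exceeded all Sham libraries and only OVX-AS-IV-High 3 reached them. Its log2 fold change was 0.77 ± 0.21 in OVX against Sham and -0.53 ± 0.21 in treated against OVX bone (unadjusted p = 0.0343, adjusted p = 0.737 in edgeR), and 2 of the 10 genes were lower at an unadjusted p under 0.05 in the latter comparison, against 2.03% of all genes. Cxcr5, the chemokine receptor of follicular B cells, was the single further B lineage gene past both thresholds in any comparison. It had 110, 169 and 103 counts in Sham and 49, 49 and 52 in treated bone, a log2 fold change of -1.40 ± 0.44 (adjusted p = 0.166).

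Other cell types were read from their own markers. Cd3e, a T cell receptor chain, had 63 to 85 counts in Sham and 102, 376 and 67 in OVX bone, so that 1 library carried the difference. Of 8 T cell genes, 1 was higher at an unadjusted p under 0.05 in OVX against Sham, where 8.16% of all genes were, and the 8 together summed to between 118 and 189.6 normalized CPM in Sham and between 120.3 and 186 in OVX bone. Ptcra was at 0 counts in Sham 2. Ptprc, carried by all leukocytes, had a log2 fold change of 0.26 ± 0.21 in OVX against Sham. In treated against OVX bone Ptprc stood at 0.46 ± 0.21 (unadjusted p = 0.051 in edgeR), with treated libraries from 310 to 579 normalized CPM. The median of the 6 pan-leukocyte genes, Ptprc among them, was 0.004 in that comparison. All 6 adipocyte genes were higher in OVX than in Sham at an unadjusted p under 0.05, against the same 8.16% of all genes. Of 7 skeletal muscle genes, 0 had an unadjusted p under 0.05 in edgeR, with a median log2 fold change of -1.05 and a spread in Sham from 1420.5 to 7760 normalized CPM. Osteoblast genes summed to 4222, 5785 and 13211 in Sham and to 10617, 17100.4 and 14414 in OVX bone, with Sham 3 inside the OVX range. The part of these shifts in cell content in the differences of the early B cell genes was not tested beyond the muscle and leukocyte fits given above.

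The genes most like the 8 in their pattern over the 9 libraries were found by Pearson's r between log2 CPM and the mean of the 8 standardized profiles, as a description without a test. Hnrnpl, a splicing factor, came first with r = 0.988, followed by Septin6 at 0.984, Trib2 at 0.983, Ikzf3 (Aiolos, a lymphoid transcription factor) at 0.983 and Tifa at 0.982. Tp53i11, Rasgrp1 and Gstm1 had r of 0.979, 0.978 and 0.978. Ikzf3 measured 42.9, 46.2 and 66.0 normalized CPM with Sham surgery, 87.0, 105 and 96.3 after ovariectomy and 64.7, 75.3 and 89.4 in treated bone. It thus stood lowest in Sham 1 and highest in OVX 2. Of the 32 pathway genes, Spib at 0.965, Foxo1 at 0.964 and Tcf3 at 0.957 followed Ikzf3, while Il7 had r = 0.09 and Erg -0.82.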

How the data were processed

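Poly(A)-selected RNA of 9 bone libraries was analysed. According to the study's methods, the authors aligned reads with Tophat/Bowtie2 and quantified them with eXpress; the submitters' processing notes name build mRatBN7.2. The deposited counts are whole numbers per gene, and the deposited FPKM values rescale them (implied gene length equal within 1% in 11928 of 11928 genes with 100 counts or more). The counts were tested with edgeR 4.0.16 in R 4.3.3 (TMM, default filter with a minimum count of 10, quasi-likelihood, all 9 libraries in 1 fit), with Benjamini-Hochberg adjustment over 16874 genes. Past the thresholds means a log2 fold change beyond 1 in either direction with an unadjusted p under 0.05. The SE is the log2 fold change divided by the square root of F. Normalized CPM use TMM library sizes. The common biological coefficient of variation was 0.256. The script was tested on simulated counts.

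Alternatives used DESeq2 1.42.0, limma 3.58.1 on log2(FPKM + 1) or log2(FPKM + 0.1), other scalings and left-out libraries. With 3 against 3 libraries, the smallest p of a permutation test is 0.1, so none was run. Library numbers were not taken as pairs in the main fit. Deviations of same-numbered libraries correlated at 0.310, 0.158 and 0.130 between OVX-AS-IV-High and OVX. Between OVX and Sham the values were 0.20, -0.161 and 0.253, and between OVX-AS-IV-High and Sham 0.314, -0.158 and 0.435. Promoters came from RefSeq tables of GRCr8. The genes named were the 9 symbols, 12 further genes listed by name (1 listed gene is not reported here), any other listed B lineage gene past the thresholds and the 8 genes most like the 8 members. Members and lists were chosen with earlier results of these data known. The study describes its replicates as independent.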

Additional observations from a re-analysis of the deposited data

How the results depend on the processing

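In OVX against Sham, 1 of 8 genes passed both thresholds, and it was 1 with DESeq2, DESeq2-type size factors, no filter on low counts or only the groups compared. It was 3 with a replicate block, 2 and 3 with limma on log2(FPKM + 1) and log2(FPKM + 0.1), and 0 with pan-leukocyte scaling. Leaving out 1 library at a time gave 0 to 4. Alternatives chosen after seeing the data gave 0 without 2 muscle-rich Sham libraries, 0 without all 3 muscle-rich libraries, 0 with muscle as a covariate and 5 at the log2 threshold of 0.58 in the study's methods. In OVX-AS-IV-High against Sham the count of 0 became 1 with the replicate block, 1 with limma on log2(FPKM + 0.1), 2 at the log2 threshold of 0.58, and 0 to 4 with 1 library left out. In OVX-AS-IV-High against OVX it was 0 in every alternative, the replicate block included, where 4 in place of 3 genes had an unadjusted p under 0.05. Deviations of same-numbered Sham and OVX libraries correlated at 0.20, -0.161 and 0.253, and those of Sham and OVX-AS-IV-High at 0.314, -0.158 and 0.435. The labels and the study's methods name no pairing by number, so the blocked count of 3 is no paired result. The cause of the changes in these counts was not tested.

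Directions of small differences turned. In OVX against Sham, Dntt was -0.00448 without the 2 muscle-rich Sham libraries (-0.00441 without 3), and Vpreb1b was -0.13 with pan-leukocyte scaling, -0.39 without the muscle-rich libraries (-0.39 without 3) and -0.0731 to 0.63 with 1 library left out. In treated against OVX bone, Rag1 was -0.0815 with the replicate block, -0.0926 and -0.10 with limma at the larger and smaller pseudocount, -0.0208 with pan-leukocyte scaling and -0.16 with the muscle covariate. Dntt was 0.00543 with DESeq2, 0.00545 with its size factors and 0.00808 without the filter. Without the 3 muscle-rich libraries Rag2 was 0.12, Dntt 0.27 and Vpreb1a 0.10. With 1 library left out, Rag1 ran from -0.18 to 0.28, Rag2 from -0.21 to 0.11, Dntt from -0.21 to 0.26, Vpreb1a from -1.33 to 0.10 and Vpreb1b from -0.29 to 0.0794. In treated bone against Sham, pan-leukocyte scaling gave Ebf1 -0.14, Cd79a -0.00495, Cd79b -0.0204 and Vpreb1b -0.29. Without the 2 Sham libraries, Dntt was -0.00837, Pax5 0.10 and Vpreb1b -0.49, and without 3 libraries Pax5 was 0.0578 and Vpreb1b -0.68. Pax5 was 0.00152 with only the groups compared and 0.00574 with the muscle covariate, which gave Vpreb1a -0.57. With 1 library left out, Pax5 ran from -0.0803 to 0.0928, Vpreb1a from -0.29 to 1.13 and Vpreb1b from -0.17 to 0.53. Depth did not limit the 8 genes, whose lowest count was 295.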
